A study of Mus musculus with 6 samples.

Results

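Endothelial cells line the arteries, capillaries and red pulp sinuses of the spleen, and a panel of 34 genes known from vascular and sinus endothelium was followed in spleens of Rag2/pfp knockout and wild-type mice. The genes are given by name, by a rule that uses no difference between the groups, though earlier results of these data were known at their choice. Every probe carrying a listed symbol and detected on at least 3 of 6 arrays was kept. This left 34 of 46 probes, out of 12885 probes that passed the same filter on the whole array, and they represent 29 genes. A probe counted as detected on an array where its detection p-value, which sets it against that array's negative control beads, was under 0.05. Clec14a, Efnb2, Erg and Lyve1 had only probes that did not pass, and no probe was annotated to Cldn5. Flt1, Flt4, Robo4, Sox7, Notch4 and Egfl7 also had probes that did not pass, beside tested ones. Of the 12 probes that did not pass, 8 were detected on no array, 2 on 1 array and 2 on 2 arrays.

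The study profiled total RNA of whole spleen on Illumina MouseRef-8 v2 expression BeadChips, with 3 arrays from mice of the genotype Rag2/pfp KO and 3 from mice of the genotype Wild type. Rag2 encodes part of the recombinase that assembles the antigen receptor genes of B and T cells, and pfp is an older name of Prf1, the perforin gene of cytotoxic granules. The labels give neither strain, age nor sex. They do not say that the arrays of a group came from separate animals, so p-values here measure the scatter of 3 arrays per group, some of which may be technical. No treatment or time point is named for either group. RNA came from the whole organ, so fewer cells of a type and less RNA per cell cannot be told apart.

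Endothelial cells respond to vascular endothelial growth factors and angiopoietins through receptor kinases, hold together through cadherin and immunoglobulin-type adhesion proteins, and take arterial or venous character through Notch and ephrin signals. The sinus endothelium of liver and spleen also carries scavenger receptors that clear material from blood. Transcription factors of the ETS and SOX families act at many endothelial genes. Several panel genes are known from blood cells too, among them Pecam1, Icam2, Vwf, Esam, Cd34 and Thbd.

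The arrays were not equally alike, which bears on everything that follows. Over the 12885 tested probes, the wild-type arrays correlated with each other at 0.982 to 0.990 on the log2 scale. Knockout replicates 2 and 3 correlated at 0.965, and knockout replicate 1 correlated with them at 0.939 and 0.947. Knockout replicate 2 differed from the other 5 arrays in sex-linked transcripts: the brighter Xist probe read 7.16 log2 there, against 8.61 to 9.62 elsewhere, and Eif2s3y was detected on that array alone. The knockout group was thus mixed in these transcripts and the wild-type group was not, and the part of this in the knockout spread was not tested. Rag2 was detected on no array, and both Prf1 probes were detected on all 6 without a called difference, at 0.32 ± 0.29 log2 (SE) for the brighter probe (limma adjusted p = 0.646). Neither gene therefore checked the genotype. The median signals over all probes of the array were 142 to 158 in the knockout and 151 to 164 in wild type. Over the tested probes, before between-array normalization, the median deviation from the wild-type mean was -0.01, -0.36 and -0.27 log2 on knockout replicates 1 to 3.

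No endothelial gene was called different between the groups, and the panel varied most among the 3 knockout arrays. Values are the authors' log2 values, quantile-normalized so that each array has the same distribution, and differences are knockout minus wild type. None of the 29 genes was called by limma at a Benjamini-Hochberg adjusted p under 0.05, where 3.62% of all tested probes were called, 1.01% higher and 2.62% lower. At an unadjusted p under 0.05, 3 of 29 genes passed, Icam2, Pecam1 and Vwf, against 17.9% of all tested probes. Groups that did not overlap in either direction were found for 3 of 29 genes, Kdr, Icam2 and Pecam1, against 24.4%. The median difference over the 29 genes was 0.06 log2, with 17 above 0 and 12 below, beside a median of 0.02 over all tested probes. Single differences ran from -0.85 for Icam2 to 0.58 for Vwf, and 26 of 29 were smaller than 0.5 log2 in size.

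The precision differed between genes, and 23 of the 29 intervals (95%, limma) lay within 1 log2 of 0 on both sides. The narrowest interval extended 0.29 log2 to each side and the widest 1.07. The median SD over the panel was 0.46 log2 in knockout spleens and 0.12 in wild type, beside 0.27 and 0.13 over all tested probes. The knockout SD was the larger in 27 of 29 genes, as in 83.2% of all tested probes. Without background correction, as in the authors' values, the changes of dim probes are understated, and with correction by neqc 16 of 29 intervals lay within 1 log2 of 0.

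**Figure D1:**
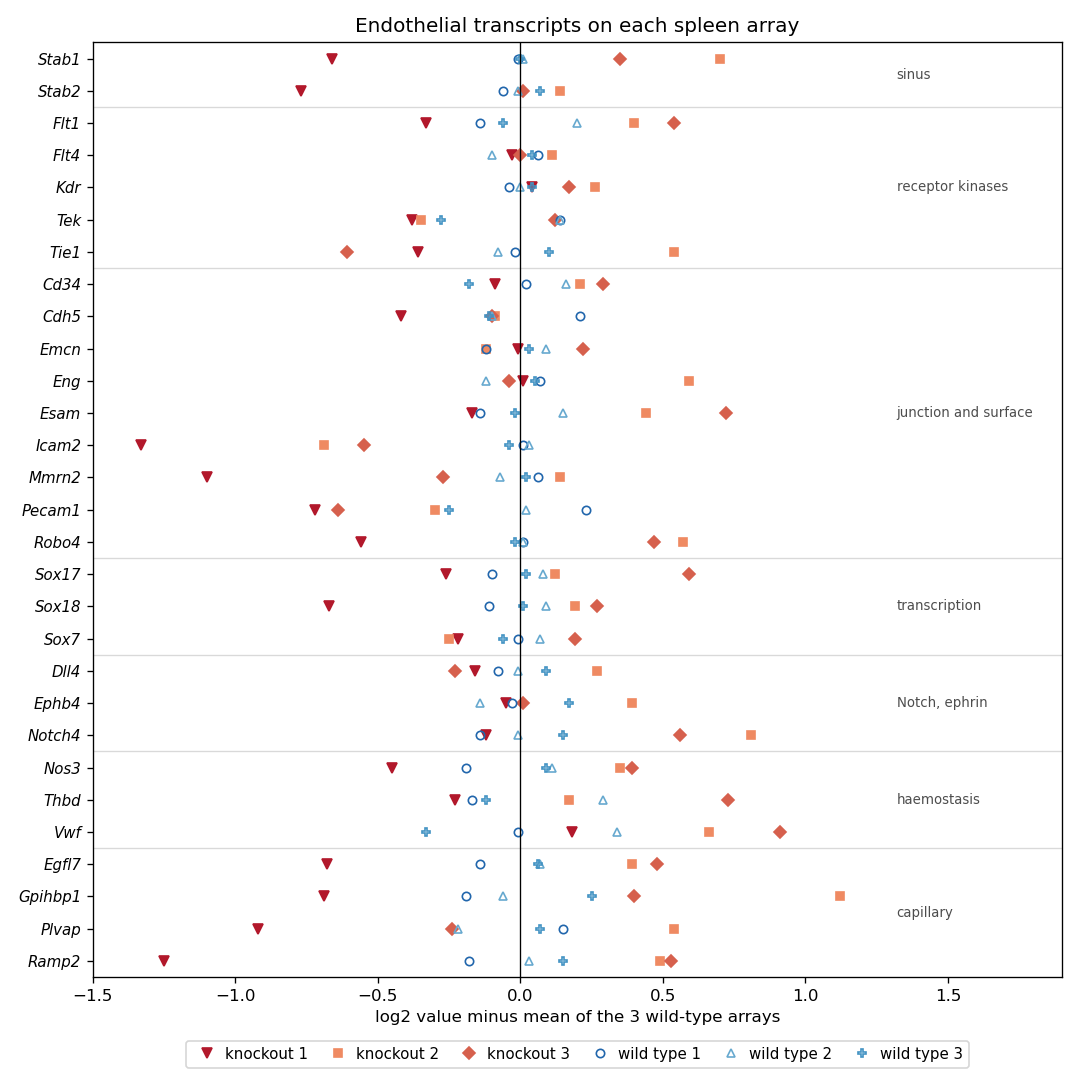
Each row is an endothelial gene, and each point is the log2 value on 1 array minus the mean of the 3 wild-type arrays, with knockout arrays filled and wild-type arrays open. Knockout replicate 1 is the lowest of the knockout arrays in 24 of 29 genes. Icam2 and the brighter Pecam1 probe, the one shown, lie below wild type on all 3 knockout arrays.

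In the quantile-normalized values, knockout replicate 1 stood low across most of the panel, and knockout replicates 2 and 3 stood high. Replicate 1 was the lowest of the 3 knockout arrays in 24 of 29 genes, against 37.9% of all tested probes, and was the highest in 0. It lay below all 3 wild-type arrays in 21 genes, against 37.5% of all tested probes. Replicate 2 lay above all 3 wild-type arrays in 22 genes and replicate 3 in 17, against 38.9% and 39.4%. The median deviation from the wild-type mean was -0.36 log2 on replicate 1, 0.27 on replicate 2 and 0.22 on replicate 3, while over all tested probes it was 0.01, 0.02 and 0.02. In these values the knockout mean therefore averaged arrays on opposite sides of wild type. Without between-array normalization the median deviations were -0.46, -0.08 and -0.14 log2, each below 0, beside -0.01, -0.36 and -0.27 over all tested probes. Replicates 2 and 3 then lay above all wild-type arrays in 3 and 7 genes, against 7.31% and 11.4%. They lay below all of them in 12 and 15, against 73.3% and 63.5%. Replicate 1 was then the lowest knockout array in 17 genes, against 15%, and the highest in 4, against 65%.

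The same arrays also differed in other cell types, and the part of these in the endothelial values was not tested. Erythroid genes, 6 of 8 listed genes tested, stood highest on the first knockout array, with median deviations of 1.16, 0.71 and 0.68 log2 over the knockout arrays, with mean levels of 12.22 to 12.56 in the knockout and 11.34 to 11.47 in wild type. Of these, 5 were called higher, and 0 to 4 with a single array left out, led by Klf1, the erythroid Krüppel-like factor, at 1.25 ± 0.17 log2 (SE; limma adjusted p = 0.0129), the membrane skeleton gene Ank1 at 1.25 ± 0.23 and the erythropoietin receptor gene Epor at 1.14 ± 0.24. Mural cell and smooth muscle genes, 8 of 10 tested, gave -0.43, 0.65 and 0.05, with replicate 1 the lowest knockout array in 6 of 8. Their mean levels ran from 8.98 to 9.92 in the knockout and from 9.32 to 9.39 in wild type, and none was called. Acta2, smooth muscle actin, and Mylk, the kinase of myosin light chain, were their brightest members, at -0.14 ± 0.26 log2 (SE) and 0.02 ± 0.32. Red pulp macrophage genes, 11 of 13 tested, gave -0.20, 0.32 and 0.06, again with none called. Their mean levels in the knockout, 11.18 to 11.83, lay within the wild-type range, whose highest array, wild-type replicate 1, read 11.92. On that array Hmox1, a gene of this list, read 12.17, against 8.53 and 8.07 on wild-type replicates 2 and 3. Its knockout values were 8.42, 10.83 and 7.87, and its part in the range was not tested. The brightest were the iron exporter gene Slc40a1, at 0.01 ± 0.26, and Axl, a receptor kinase for apoptotic cell uptake, at 0.08 ± 0.22.

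**Figure D2:**
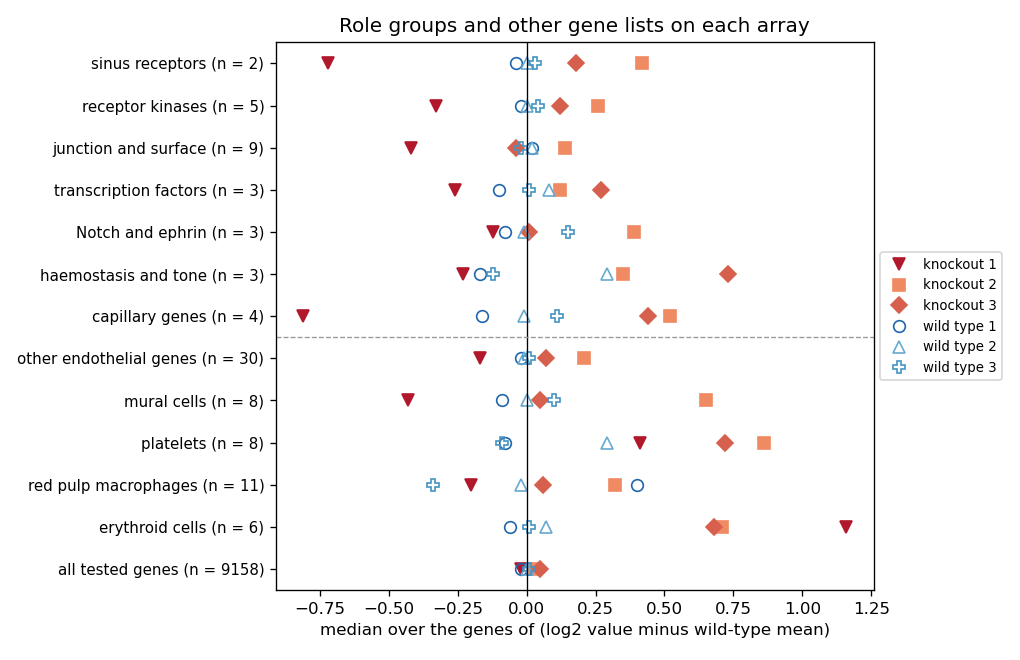
Medians over the genes of each list of the log2 value minus the wild-type mean, for each of the 6 arrays, with the 7 endothelial role groups above the dashed line and other gene lists below it. Knockout replicate 1 is the lowest knockout array in each of the 7 role groups and also in the other endothelial, mural cell, platelet and red pulp macrophage lists, and the highest in erythroid genes.

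The sinus scavenger receptors showed this spread with tight wild-type values. Stab2, which takes up hyaluronan in sinus endothelium, read 10.98, 11.89 and 11.76 log2 in knockout spleens and 11.69, 11.74 and 11.82 in wild-type spleens, values being listed by replicate number here and in what follows. Replicate 1 alone left the wild-type range downward, replicate 2 alone rose above it, and the difference was -0.21 ± 0.24 log2 (SE; limma adjusted p = 0.743). Stab1, its relative, which macrophages also make, read 8.15, 9.52 and 9.17 in the knockout and 8.80, 8.83 and 8.81 in wild type. The wild-type arrays spanned 0.03 log2 and the knockout arrays 1.37, so the groups overlapped through an array on each side, and the difference was 0.13 ± 0.32 (adjusted p = 0.896). Lyve1, a hyaluronan receptor known from lymphatic and sinus endothelium, was not well above background, with its probe detected on 1 array.

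None of the VEGF receptors passed the test, and Kdr was the 1 panel gene with every knockout value above every wild-type value. Kdr, the receptor that carries most VEGF signalling, read 7.40, 7.62 and 7.52 log2 in knockout spleens and 7.31, 7.36 and 7.39 in wild type. The lowest knockout and highest wild-type values differed by little, and the difference was 0.16 ± 0.12 log2 (SE; limma adjusted p = 0.587). Such separation upward was found for 1 of 29 genes, against 12.4% of all tested probes. With neqc background correction its difference was larger, at 0.44 ± 0.24, again not called. Flt1, which binds VEGF tightly and limits its signal, read 9.98, 10.72 and 10.86 in the knockout and 10.18, 10.52 and 10.26 in wild type. Replicate 1 lay below wild type and the other knockout arrays above it, with a difference of 0.20 ± 0.24 (adjusted p = 0.752). Flt4, the receptor of VEGF-C, varied little, at 7.32, 7.46 and 7.35 against 7.41, 7.26 and 7.39, and differed by 0.03 ± 0.12 with an interval of -0.26 to 0.31.

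The angiopoietin receptor Tek read 8.36, 8.39 and 8.86 log2 in knockout spleens and 8.88, 8.87 and 8.46 in wild type. Each group held both high and low arrays, and the difference was -0.20 ± 0.19 log2 (SE; limma adjusted p = 0.671). Tie1, the partner of Tek with no well-defined ligand of its own, departed from the common order of the knockout arrays. It read 8.09, 8.98 and 7.83 in the knockout and 8.42, 8.37 and 8.54 in wild type, so its lowest array was replicate 3, and the difference was -0.14 ± 0.29 (adjusted p = 0.868).

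Promoter windows of 300 bases, 250 before and 50 after the annotated start, were available from RefSeq (GRCm38.p6) for 19 of the 34 genes, in 23 windows. The ETS core GGAAGT, read on both strands, occurred in 7 of 23 windows (30.4%), beside 23.8% of all 32851 windows of the same length. The SOX core ACAAT, also on both strands, occurred in 7 of 23 windows (30.4%), beside 31.0% of all windows. Of the 5 receptor kinase genes, Kdr, Flt1 and Tie1 held an ETS core each, and Tek held 2 SOX cores and no ETS core. The 3 windows with an ETS core are shown because their genes differed in how they varied over the arrays, with the core in capitals as it reads on the gene's strand. The first base of the core lay at -217, -52 and -82 from the start in Kdr, Flt1 and Tie1. A match of these letters describes the sequence and not a bound site.
Kdr promoter, chr5:75978406-75978705, minus strand: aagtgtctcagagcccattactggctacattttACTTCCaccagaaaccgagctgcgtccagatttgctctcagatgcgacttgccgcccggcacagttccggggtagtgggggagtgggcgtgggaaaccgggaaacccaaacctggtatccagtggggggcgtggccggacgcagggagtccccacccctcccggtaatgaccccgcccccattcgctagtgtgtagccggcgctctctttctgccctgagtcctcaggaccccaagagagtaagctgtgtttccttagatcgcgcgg
Flt1 promoter, chr5:147725962-147726261, minus strand: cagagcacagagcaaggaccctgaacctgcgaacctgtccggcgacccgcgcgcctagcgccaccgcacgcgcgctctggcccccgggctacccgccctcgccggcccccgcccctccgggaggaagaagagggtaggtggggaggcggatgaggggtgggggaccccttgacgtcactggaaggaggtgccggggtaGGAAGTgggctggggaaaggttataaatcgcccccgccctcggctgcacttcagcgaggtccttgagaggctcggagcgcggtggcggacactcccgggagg
Tie1 promoter, chr4:118489800-118490099, minus strand: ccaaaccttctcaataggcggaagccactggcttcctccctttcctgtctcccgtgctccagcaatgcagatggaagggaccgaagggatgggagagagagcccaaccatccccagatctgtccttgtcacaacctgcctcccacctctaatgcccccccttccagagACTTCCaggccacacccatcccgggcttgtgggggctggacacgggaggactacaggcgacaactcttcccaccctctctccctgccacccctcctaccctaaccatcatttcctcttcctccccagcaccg

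Icam2 and, by its brighter probe, Pecam1, of the junction and adhesion genes, lay lower on every knockout array than on any wild-type array. Neither difference was called. Icam2, an adhesion protein of endothelium, lymphocytes and platelets that binds leukocyte integrins, read 9.80, 10.44 and 10.58 log2 in knockout spleens and 11.13, 11.16 and 11.09 in wild type. The wild-type arrays spanned 0.07 log2 and the nearest knockout array lay well below them. The difference was -0.85 ± 0.21 log2 (SE; 95% interval -1.35 to -0.36; unadjusted p = 0.00457, limma adjusted p = 0.0785), or 1.81-fold lower. Without knockout replicate 1 the difference was smaller, at -0.62 ± 0.12, and passed the threshold (adjusted p = 0.0446). With neqc and without that array together, it did not pass (-0.66 ± 0.20, adjusted p = 0.112). Icam2 was also called with array weights and with the scalings given under the closing observations, with adjusted p from 0.0112 to 0.283 over its 20 alternatives.

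Pecam1, or CD31, a homophilic adhesion protein of endothelial junctions, platelets and leukocytes, was measured by 2 tested probes annotated to different RefSeq transcripts. The brighter probe read 9.31, 9.74 and 9.39 log2 in knockout spleens and 10.26, 10.05 and 9.79 in wild type, a difference of -0.55 ± 0.18 (SE; unadjusted p = 0.0171, limma adjusted p = 0.160). The highest knockout array was just under the lowest wild-type array. The other probe read 8.55, 9.62 and 9.48 in the knockout and 9.11, 9.44 and 9.32 in wild type. It followed the pattern of most panel genes, low on replicate 1 and above wild type on replicates 2 and 3, with a difference of -0.07 ± 0.28 (adjusted p = 0.938). Whether the 2 probes differ in their change was not tested. Groups that did not overlap downward were found for 2 of 29 genes, Icam2 and Pecam1, against 12.0% of all tested probes.

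Most of the tested lymphocyte genes were called lower on the same arrays, and their part in the Icam2 and Pecam1 values was not tested. All 7 tested B cell genes of 9 listed were called lower, also with any single array left out, with differences of -4.69, -4.11 and -4.08 log2 for Cd79a, Blk and Cd79b, of which Cd79a was detected on 2 knockout arrays and the others on 3. The mean level of the B cell list was 7.52 to 7.70 log2 in knockout spleens and 10.41 to 10.78 in wild type, and Ms4a1 and Cr2 were detected on no knockout array. Of 7 tested T cell genes of 9 listed, 5 were called lower, also with any single array left out, at a mean level of 7.34 to 7.59 against 9.90 to 10.18. Cd3d, detected on all 3 knockout arrays, differed by -3.76 log2, while Cd3e and Cd6 were not well above background on any knockout array. The T cell genes that did not pass were Cd4, at -0.22 ± 0.16 (adjusted p = 0.548), and Lat, at -0.65 ± 0.33 (adjusted p = 0.362).

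**Figure D3:**
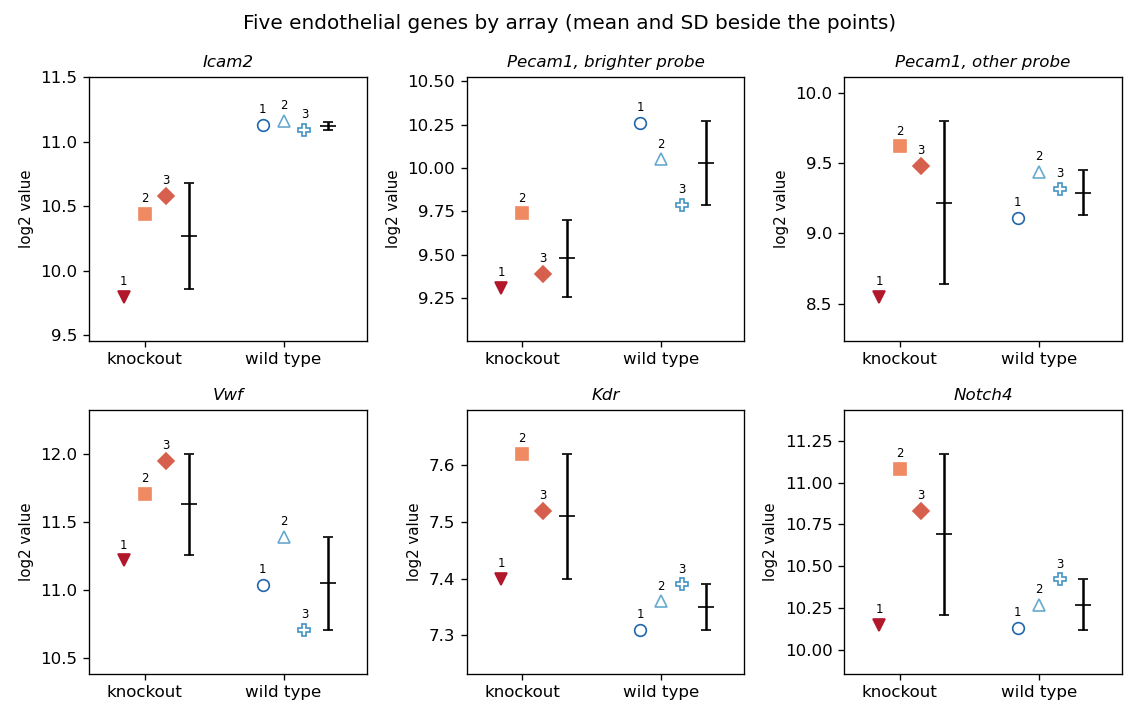
Log2 values of Icam2, the 2 tested probes of Pecam1, Vwf, Kdr and Notch4 on the 3 knockout arrays (filled) and the 3 wild-type arrays (open), numbered by replicate, with group mean and SD beside them on axes that do not start at 0. The knockout values of Icam2 and of the brighter Pecam1 probe lie below the wild-type values, those of Kdr lie above, and those of the other probes overlap with wild type.

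Other junction and surface genes did not pass the test. Cdh5, VE-cadherin, which builds the adherens junctions of endothelium, read 7.97, 8.30 and 8.29 log2 in knockout spleens and 8.60, 8.29 and 8.28 in wild type. Replicates 2 and 3 of both groups were nearly equal, and the difference was -0.20 ± 0.16 log2 (SE; limma adjusted p = 0.594). Esam, an adhesion protein of endothelial junctions and platelets, read 10.80, 11.42 and 11.70 in the knockout and 10.84, 11.13 and 10.96 in wild type. Its difference was 0.33 ± 0.24 (adjusted p = 0.553), with replicate 1 just below the lowest wild-type array and the others above the highest. Mmrn2, an endothelial matrix protein, read 9.19, 10.44 and 10.03 against 10.35, 10.22 and 10.31, a difference of -0.41 ± 0.30 (adjusted p = 0.562).

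Robo4, a guidance receptor that stabilises vessels, gave nearly identical wild-type values of 10.30, 10.30 and 10.27 log2, while the knockout arrays read 9.73, 10.86 and 10.76. A knockout array thus lay below wild type and the other two above, and the difference was 0.16 ± 0.29 log2 (SE; limma adjusted p = 0.855). Emcn, the sialomucin endomucin, had the smallest difference of this group, at 0.03 ± 0.14, with an interval of -0.30 to 0.37, and read 7.95, 7.84 and 8.18 against 7.84, 8.05 and 7.99. Eng, a coreceptor of the TGF-beta and BMP pathway, read 9.51, 10.09 and 9.46 against 9.57, 9.38 and 9.55, high on replicate 2 alone. Cd34, a sialomucin of capillaries and haematopoietic progenitors, differed by 0.14 ± 0.16 (adjusted p = 0.738).

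The SOX factors of endothelium, which act together in vessel formation, did not pass the test. Sox18 read 8.41, 9.27 and 9.35 log2 in knockout spleens and 8.97, 9.17 and 9.09 in wild type, and differed by -0.07 ± 0.25 (SE; limma adjusted p = 0.933). Sox17, known for arterial identity, read 7.51, 7.89 and 8.36 against 7.68, 7.85 and 7.79, a difference of 0.15 ± 0.22 (adjusted p = 0.812), and its other tested probe differed by 0.08 ± 0.17. Both genes were lowest on knockout replicate 1 and highest on knockout replicate 3. Sox7 was lowest on replicate 2 instead and differed by -0.09 ± 0.16. Erg, the ETS factor of endothelium, was not well above background, with neither of its probes detected on any array.

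The Notch and ephrin genes, which set arterial and venous character, included the second largest positive difference of the panel. Notch4, a Notch receptor of endothelium, read 10.15, 11.08 and 10.83 log2 in knockout spleens and 10.13, 10.27 and 10.42 in wild type. Replicate 1 lay within the wild-type range and the other knockout arrays above it, and the difference was 0.41 ± 0.24 log2 (SE; limma adjusted p = 0.450). Dll4, the arterial ligand of Notch receptors, was dim, detected on 1 knockout array and 3 wild-type arrays. It read 7.23, 7.65 and 7.15 against 7.31, 7.37 and 7.47, so the knockout arrays enclosed the wild-type range, and differed by -0.04 ± 0.16. Ephb4, the venous receptor of ephrin B2, differed by 0.11 ± 0.17 (adjusted p = 0.809), with its highest value of 7.95 on knockout replicate 2. The probe of Efnb2, which encodes that ligand, was detected on no array.

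Genes of haemostasis and vascular tone had differences above 0 in 3 of 3, none of them called. Vwf, the multimeric protein that tethers platelets to vessel walls, read 11.22, 11.71 and 11.95 log2 in knockout spleens and 11.04, 11.39 and 10.71 in wild type. Replicate 1 overlapped with wild type while replicates 2 and 3 lay above it, and the difference was 0.58 ± 0.24 log2 (SE; 95% interval 0.01 to 1.15; unadjusted p = 0.0465, limma adjusted p = 0.268), or 1.5-fold higher. Vwf is also made by megakaryocytes, and platelet and megakaryocyte genes lay above 0 in 8 of 8 tested members of 12 listed, with a median difference of 0.78. Their mean level was 10.70 to 11.07 in the knockout and 10.04 to 10.49 in wild type, and the part of this in the Vwf value was not tested. Gp9, a platelet receptor subunit, was the 1 called platelet gene, at 0.84 ± 0.17 (adjusted p = 0.0492), a call lost on leaving out any single array.

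Thbd, thrombomodulin, the endothelial cofactor that turns thrombin toward protein C, read 7.74, 8.14 and 8.70 log2 in knockout spleens and 7.81, 8.26 and 7.85 in wild type. Its difference was 0.22 ± 0.26 (SE; limma adjusted p = 0.746), and the knockout arrays enclosed the wild-type range. Nos3, endothelial nitric oxide synthase, had 3 tested probes, with differences of 0.10 ± 0.24, 0.08 ± 0.23 and -0.05 ± 0.18. Its brightest probe read 8.40, 9.20 and 9.24 against 8.65, 8.95 and 8.94, and all 3 probes placed replicate 1 lowest.

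Capillary genes were lowest in the knockout on replicate 1 in 4 of 4. Ramp2, a subunit of the adrenomedullin receptor, read 9.96, 11.70 and 11.74 log2 in knockout spleens and 11.03, 11.24 and 11.35 in wild type. Replicate 1 lay 1.25 log2 below the wild-type mean and the others 0.49 and 0.53 above it, so the difference of -0.08 ± 0.46 (SE; limma adjusted p = 0.961) had an interval of -1.15 to 0.99. Gpihbp1, which carries lipoprotein lipase to the capillary lumen, read 8.74, 10.55 and 9.83 against 9.24, 9.37 and 9.68, a difference of 0.28 ± 0.42 (adjusted p = 0.818). Replicate 2 was its highest array, 1.12 above the wild-type mean. Fat, which is rich in Gpihbp1, had 2 of 10 listed genes tested, Lep at 0.07 ± 0.12 and Lpl at -0.20 ± 0.34, and 0 called.

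Plvap, which forms the diaphragms of fenestrae and of caveolae, read 11.60, 13.06 and 12.28 log2 in knockout spleens and 12.67, 12.30 and 12.59 in wild type. The knockout arrays enclosed the wild-type range, and the difference was -0.21 ± 0.34 log2 (SE; limma adjusted p = 0.837). Egfl7, a secreted factor of endothelial cells, read 11.53, 12.60 and 12.69 against 12.07, 12.28 and 12.27 by its brightest probe, a difference of 0.06 ± 0.30. Its other tested probe differed by 0.25 ± 0.22, with replicate 1 below and the other knockout arrays above wild type on both probes. A narrower set of 10 endothelial markers (Cdh5, Kdr, Tie1, Robo4, Clec14a, Mmrn2, Plvap, Esam, Egfl7 and Sox18), of which Esam is also known from platelets, had 9 tested members, of which 8 were lowest in the knockout on replicate 1. The mean level of these 9 was 9.41, 10.29 and 10.05 in the knockout and 9.94 to 9.97 in wild type. They were chosen by the detection filter, and each of the 9 was detected on all 6 arrays. Clec14a, the marker left out, was detected on 0 arrays.

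**Figure D4:**
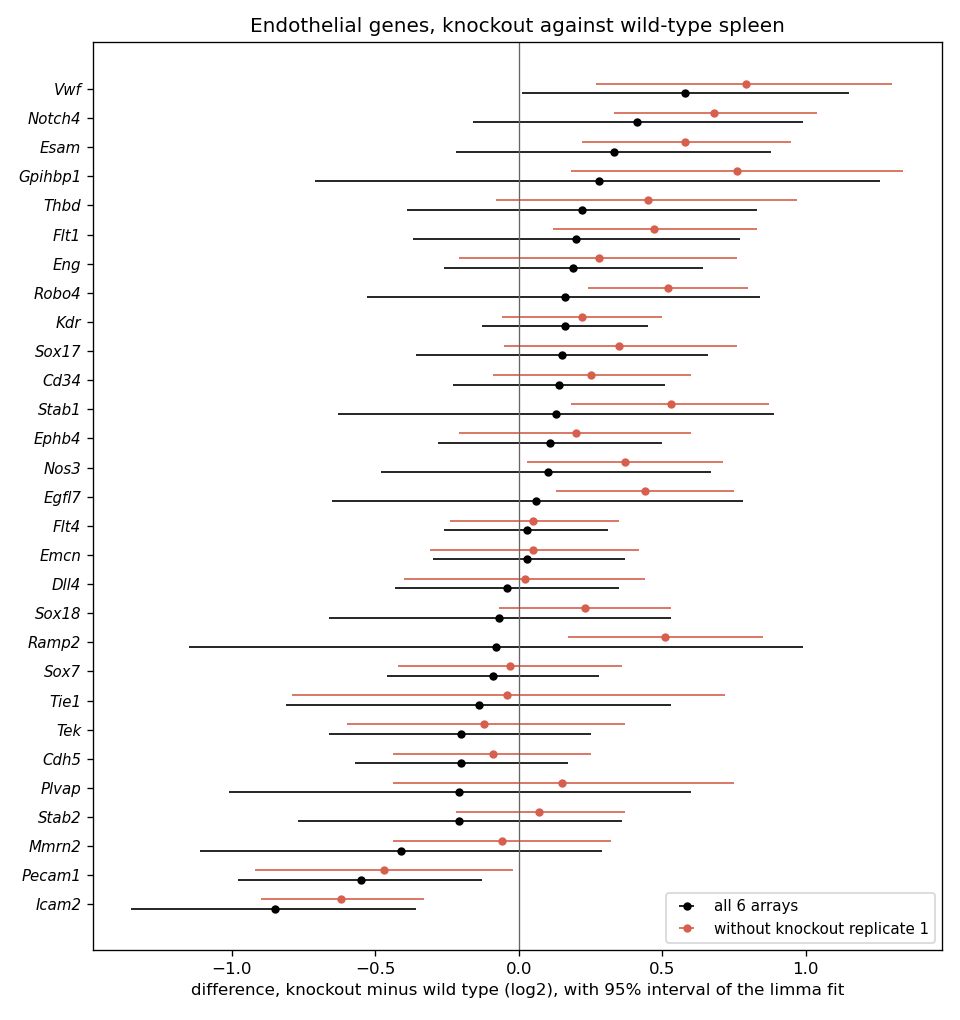
Differences in log2, knockout minus wild type, for the 29 endothelial genes with their 95% intervals from limma, for all 6 arrays (black) and without knockout replicate 1 (red). Without that array the median moves from 0.06 to 0.23. The intervals of Icam2 and of the brighter Pecam1 probe stay below 0 in both fits, and that of Vwf stays above 0. The other Pecam1 probe is not shown.

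Leaving out single arrays moved the panel in a way that followed the spread of the knockout group. Without knockout replicate 1 the median difference was 0.23 log2, with 22 of 29 genes above 0, and it was -0.05 and -0.03 without replicate 2 or 3, with 9 and 14 above 0. Without a wild-type array it lay between 0.00 and 0.07. Without knockout replicate 1, 14 genes lay higher in both remaining knockout arrays than in any wild-type array, against 21.8% of all tested probes. Icam2 and the brighter Pecam1 probe lay lower, against 18.9%. The other Pecam1 probe lay higher than wild type on these arrays, at 0.26 ± 0.14 log2 (SE). In that fit Icam2 alone was called, 1 of 29 genes against 4.21% of all tested probes, or 2.68% in its direction. At an unadjusted p under 0.05, 10 genes were higher and 2 lower, against 11.5% and 10.7% of all tested probes, and 0 were higher at an adjusted p under 0.05, against 1.54%. The lowest adjusted p among the higher genes were those of Notch4, at 0.68 ± 0.15 log2 (SE; limma adjusted p = 0.0599), and Robo4, at 0.52 ± 0.12 (adjusted p = 0.0632). Without replicate 2, 1 gene lay higher without overlap and 6 lower, against 20.9% and 18.8%, and 0 were higher and 5 lower at an unadjusted p under 0.05, against 11.5% and 11.2%. Without replicate 3, 1 gene lay higher without overlap and 4 lower, against 18.8% and 17.7%, and 0 were higher and 2 lower at an unadjusted p under 0.05, against 9.65% and 10.1%.

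Endothelial and angiogenic genes outside the panel also had their lowest median on knockout replicate 1, though not every gene followed. Of 45 such genes, 30 were tested, with a median difference of 0.06 log2 and median deviations of -0.17, 0.21 and 0.07 on knockout replicates 1 to 3. Knockout replicate 1 was the lowest knockout array in 20 of 30 and lay above all 3 wild-type arrays in 7 of 30. The 2 called genes were both lower and are also known from lymphocytes. Ets1, an ETS transcription factor, read 11.20, 11.16 and 11.37 in the knockout and 13.57, 13.42 and 13.06 in wild type, and fell by 2.11 ± 0.17 log2 (SE; limma adjusted p = 0.000912). Klf2, a shear-responsive factor that also keeps lymphocytes quiescent, read 10.28, 10.88 and 10.62 against 11.77, 11.94 and 11.89, and fell by 1.27 ± 0.17 (adjusted p = 0.0130). The call of Klf2 was lost without any single wild-type array, with adjusted p up to 0.0904.

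Ackr1, a chemokine-binding protein of venules and red cells, is named after its values were seen. It read 11.78, 11.03 and 10.64 log2 in knockout spleens and 9.91, 9.89 and 10.01 in wild type, a difference of 1.21 ± 0.27 (SE; limma adjusted p = 0.0617). Its highest array was knockout replicate 1, where the erythroid list also had its highest median. The part of red cells in the Ackr1 value was not tested. Among lymphatic endothelial genes, 4 of 5 were tested and 0 called. The brightest were Ccl21a, a chemokine of lymphatics and T zone stroma, at -2.12 ± 0.48 (adjusted p = 0.0610), and Reln at -0.45 ± 0.30. Among haematopoietic stem and progenitor genes, which share Cd34 and Esam with endothelium, 4 of 8 were tested and 1 was called. This was Gfi1b, higher by 1.21 ± 0.19 (adjusted p = 0.0214), a call lost without wild-type replicate 1 or 2. Gfi1b read 11.66, 11.44 and 11.14 in the knockout, highest on replicate 1, and 10.18, 9.97 and 10.46 in wild type. Which cells gave this difference was not tested. The other tested members, Meis1, Mecom and Hlf, differed by 0.14 ± 0.34, 0.17 ± 0.12 and 0.03 ± 0.13. Acinar pancreas genes had 2 of 10 tested and 0 called, Cela1 at 0.44 ± 0.13 and Ctrl at -0.05 ± 0.16. As for fat, the detection filter would leave out genes present on a single array.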

How the data were processed

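Gene expression was measured in total RNA of 6 spleen samples, 3 per group, grouped and numbered as in their titles. The authors deposited non-normalized signal intensity with a detection p-value per probe and array, per the file headers, and a table of log2 values whose method is not stated. The submitters' processing notes name GenomeStudio 2011.1. The deposited log2 values differed by at most 5e-07 from log2 signal that was quantile-normalized here with no background correction, with a median of 7.24 on each array and genes not centred. Quantile normalization removes a shift shared by most transcripts.

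Probes were named from the platform annotation, updated by gene number or accession against RefSeq (GRCm38.p6): 23978 of 25697 had 1 symbol, 0 several and 1719 were unnamed here, and 8 symbols changed. Probes detected at p under 0.05 on at least 3 of 6 arrays were fitted with lmFit and eBayes in limma 3.58.1 (R 4.3.3), with group as the only term and two-sided tests adjusted by Benjamini-Hochberg over all 12885 probes. The fit was tested on simulated data. A gene is represented by its tested probe of highest mean, and 4 panel genes had several. Genes are described in full where the unadjusted p was under 0.05, the groups did not overlap, or the difference was the largest or smallest in size of a role group, and from other lists up to 3 called genes, else the 2 brightest, are named. Panel and lists were chosen with earlier results of these data known. The number of arrays limits the precision. Same-numbered arrays of the 2 groups deviated from their group means with correlations of 0.501, -0.332 and -0.080, so the numbers do not pair them.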

Additional observations from a re-analysis of the deposited data

How the results depend on the processing

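Over 581 alternative values of single panel genes, 508 kept direction and side of the threshold, 5 passed it and 68 changed sign, in genes whose value was not called on either side. Those that passed were all of Icam2, at -1.14 log2 without between-array normalization, -1.07 with median centring, -1.06 with array brightness as a covariate, -0.74 with array weights and -0.62 without knockout replicate 1. In each of these 5 fits 1 panel probe was called instead of 0. Over the whole array 467 probes were called, 130 higher and 337 lower. The number was 798 without between-array normalization (10 higher, 788 lower, median of all probes -0.20), 734 with median centring (20 and 714, median -0.13), 755 with array weights (286 and 469) and 1114 with brightness as a covariate (497 and 617). It was 113 to 638 with single arrays left out, and 124, 113 and 143 without wild-type replicate 1, 2 and 3. With the replicate number as a block 247 were called (33 higher, 214 lower), 0 of them panel probes, while the group differences themselves cannot change under a block in this balanced layout. Not every array correlated best with its own number, since the deviations of knockout replicate 2 went best with wild-type replicate 3 (0.525) and those of knockout replicate 3 with wild-type replicate 2 (0.564). The panel's median was -0.16 without between-array normalization and -0.09 with median centring, beside -0.20 and -0.13 over all probes. With brightness as a covariate it was -0.16, beside 0.02 over all probes, with 8 of 29 genes above 0. Without normalization the values that changed sign were -0.11 for Egfl7, -0.12 for Flt1, -0.16 for Robo4, -0.16 for Eng, -0.10 for Gpihbp1, -0.27 for Nos3, -0.24 for Stab1, -0.08 for Thbd, -0.24 for Emcn, -0.13 for Sox17, -0.09 for Ephb4, -0.07 for Cd34 and -0.10 for Flt4. With median centring they were -0.03 for Egfl7, -0.05 for Flt1, -0.09 for Robo4, -0.09 for Eng, -0.02 for Gpihbp1, -0.20 for Nos3, -0.17 for Stab1, -0.00 for Thbd, -0.17 for Emcn, -0.05 for Sox17, -0.02 for Ephb4 and -0.02 for Flt4. With brightness as a covariate they were -0.32 for Egfl7, -0.09 for Flt1, -0.16 for Robo4, -0.25 for Gpihbp1, -0.22 for Nos3, -0.24 for Stab1, -0.03 for Thbd, -0.02 for Emcn and -0.06 for Sox17, and with array weights 0.02 for Plvap, 0.19 for Ramp2 and 0.03 for Sox18. Another Nos3 probe gave -0.05. With neqc and without knockout replicate 1 together, chosen after seeing the data, Icam2 was not called (-0.66, adjusted p = 0.112), and the values that changed sign were 0.15 for Plvap, 0.08 for Stab2, 0.53 for Ramp2, 0.29 for Sox18 and 0.05 for Dll4. With single arrays left out, differences that changed sign ranged over -0.19 to 0.06 for Dll4, -0.14 to 0.44 for Egfl7, -0.07 to 0.11 for Emcn, -0.01 to 0.30 for Eng, -0.02 to 0.20 for Ephb4, -0.02 to 0.05 for Flt4, -0.15 to 0.76 for Gpihbp1, -0.05 to 0.37 for Nos3, -0.58 to 0.15 for Plvap, -0.38 to 0.51 for Ramp2, -0.05 to 0.52 for Robo4, -0.07 to 0.35 for Sox17, -0.24 to 0.23 for Sox18, -0.16 to 0.53 for Stab1, -0.38 to 0.07 for Stab2, -0.03 to 0.45 for Thbd and -0.48 to 0.09 for Tie1; the cause was not tested. Slide as a block was not run, since the headers name no slide. Depth has no counterpart here, and dim probes near background, such as those of Kdr, Flt4 and Dll4, limit what can be read from small differences.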
